A study of Ascaris suum with 28 samples.

Results

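Zygotes of Ascaris suum, the large roundworm of the pig intestine, were compared between region 4 of the uterus and regions 1, 2 and 3. The comparison rests on 4 of the 28 samples of the series, 1 poly(A) RNA library for each region. All 4 came from fertilized eggs of a North American wild population of worms, pooled over many females, with the outer egg layers removed before extraction. Region 4 is the last stretch of the uterus before the eggs leave the worm, and its zygotes are the 0 h starting point from which all later embryos were grown. Genes changed in region 4 were followed into poly(A) RNA of 24 h embryos, which still have 1 cell, and into the free, middle and heavy fractions of a polysome gradient of region 4 zygotes, called day 0. In such a gradient RNA without ribosomes stays near the top, in the free fraction, and RNA loaded with many ribosomes reaches the heavy fraction.

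In Ascaris the oocyte is fertilized at the upper end of the uterus, where sperm are stored. The zygote then builds its eggshell while it is carried downwards, and both pronuclei stay apart until after the egg has left the worm. RNA in these zygotes can therefore come from the oocyte, from the sperm or from the pronuclei, and the eggs lie in a tube of maternal tissue. The title of the series names transcription in pronuclei as its subject.

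A gene counted as changed when region 4 lay beyond each of the 3 other regions by at least 4-fold on the scale of RPKM + 1, and when at least 1 of the 4 libraries reached RPKM 10. RPKM is a count of reads corrected for the length of the gene and the size of the library. The table holds 15399 genes, and 7486 of them reached RPKM 10. Of these, 40 (0.534%) were lower in region 4 by this rule and 9 (0.12%) were higher. With 2-fold in place of 4-fold, 75 genes (1%) were lower and 425 (5.68%) higher. These shares come from the rule itself. With 1 library against 3 a one-sided exact permutation test cannot go below p = 0.25, so no single gene was tested that way. The region libraries bore on the counts: without region 3 there were 26 genes 4-fold higher and 691 genes 2-fold higher, and without region 1 there were 15 and 819, with 135 genes 2-fold lower. The table does not pair its identifiers with gene names, so no gene function is given and the stage of the libraries could not be checked against marker genes.

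The RPKM totals were 440057 in region 4 and between 413913 and 431484 in regions 1 to 3, and sequencing depth is unknown. Genes listed at 0 made up 7.91% of the table in region 4 and 10.3% to 14.1% in regions 1 to 3. The median gene lay above its mean in regions 1 to 3 by 0.46 log2 units over the 7486 genes, so higher values in region 4 were common to most genes. After median-ratio scaling of the 4 libraries this median was -0.04. Fewer zygotes of a kind and less RNA per zygote cannot be told apart in pooled eggs.

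Of the 3 steps along the uterus, the last had the most genes at a distance of 4-fold. Of 7353 genes at RPKM 10 in either library, region 4 had 99 at least 4-fold above region 3 and 104 at least 4-fold below it. The median difference at this step was 0.52 log2 units. Region 3 had 15 of 6200 genes 4-fold above region 2 and 3 below it. Region 2 had 1 of 6180 genes above region 1 and 0 below it. Region 3 against region 1, both upper steps together, gave 95 above and 55 below of 6500 genes. Against region 2, region 4 had 38 of 7275 genes above and 49 below, fewer than against region 3. Against region 1 it had 102 of 7296 genes above and 40 below. The counts of the last step thus depend on region 3 as well as on region 4. At 24 h, 168 of 7945 genes (2.11%) were 4-fold above region 4 and 114 (1.43%) below it. Pearson's r of log2(RPKM + 1) was taken across the 7486 genes, which are not independent replicates. It was 0.802 between regions 4 and 3, 0.936 between regions 3 and 2 and 0.959 between regions 2 and 1. Region 4 had a higher r with region 1 (0.868) and with region 2 (0.864) than with region 3. Between regions 3 and 1 r was 0.849.

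**Figure D1:**
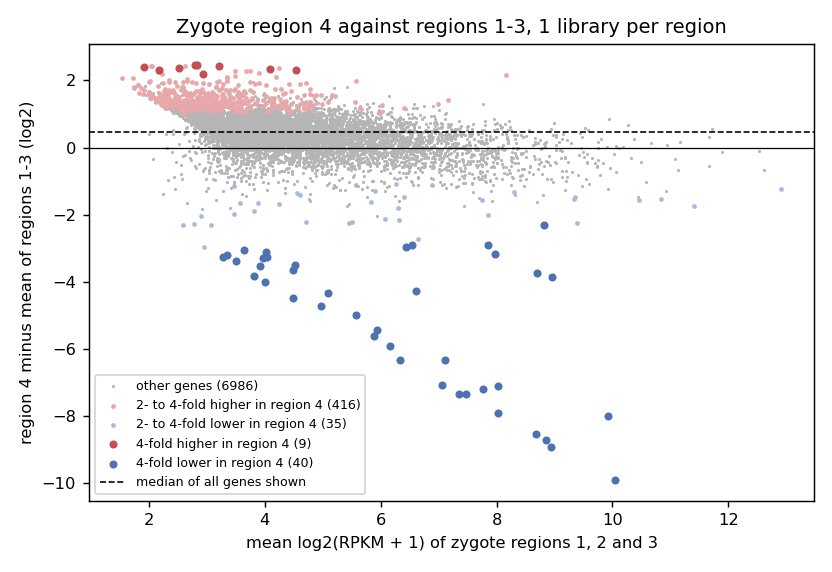
Each point is 1 of the 7486 genes, with its mean log2(RPKM + 1) over regions 1 to 3 on the x axis and region 4 minus that mean on the y axis. The 40 genes at least 4-fold lower in region 4 reach far below the cloud, the 9 genes at least 4-fold higher lie just above it, and the dashed line marks the median of 0.46.

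Most of the 40 lower genes were nearly absent from region 4. Their median was RPKM 0.45 in region 4, against 48.7, 81.1 and 135.75 in regions 1, 2 and 3. In region 4, 30 of the 40 were under RPKM 1, 8 of them at 0, and 7 were at RPKM 10 or more, whereas in region 3 all 40 were at RPKM 10 or more. The distance to the nearest other region was between 4.51-fold and 509-fold on RPKM + 1, and it was at least 16-fold for 17 genes. Together the 40 genes held 0.0562% of the RPKM total in region 4, against 1.03%, 1.85% and 2.94% in regions 1, 2 and 3.

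ASU_11339, the gene farthest from the other regions, was at RPKM 0.1 in region 4, against 558.8, 1110.1 and 1874.3 in regions 1, 2 and 3. Oocytes held RPKM 931.8 of it, 24 h embryos 0.5, and the free, middle and heavy fractions of day 0 held 0, 0.3 and 0. Among these libraries the high values were those of the oocyte and the upper 3 regions. ASU_11066 was listed at 0 in region 4, against 248, 515.6 and 904.7 in regions 1, 2 and 3, and was listed at 0 in all 3 day 0 fractions. Oocytes held RPKM 238.5 of it and 24 h embryos 0.1.

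Before they were low in region 4, the 40 genes climbed through the upper uterus nearly in step. The fold rule used only the lowest of regions 1 to 3, but the filter of RPKM 10 could be met by the highest, and 10 of the 40 genes were under RPKM 10 in region 1. The filter could thus favour a climb among scarce genes. Of the 30 genes at RPKM 10 or more in region 1, RPKM increased through the regions in 29, and their median ratio of region 3 to region 1 was 3.10. RPKM increased from region 1 through region 2 to region 3 in 39 of the 40, as it did in 30.6% of the 7486 genes. The ratio of region 3 to region 1 had a median of 3.03, with quartiles of 2.82 and 3.44 and extremes of 1.01 and 4.07. Among 5007 genes at RPKM 10 or more in all of regions 1 to 3, its median was 0.939, with quartiles of 0.678 and 1.34. The ratio of region 2 to region 1 was 1.89 in the median of the 40 genes, with quartiles of 1.75 and 2.02.

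Levels at the start of the climb did not keep such a fixed proportion to the oocyte. The ratio of the oocyte to region 1 ran from 0.112 to 17.8 among the 40 genes, with a median of 3.11. The oocyte library was at RPKM 10 or more for 33 of them, as it was for 5531 of the 7486 genes. For the other 7 it was between 1.1 and under 10. It was above region 3 for 21 genes. That the oocyte column holds poly(A) RNA of oocytes with wall is an inference, since its name alone does not decide it.

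A band of ratios around that median was set after the values were seen. Region 3 was between 2.5 and 4 times region 1 in 33 of the 40 genes and in 214 of the 5007 genes, or 4.27%. Of these 214 genes, 27 belonged to the 40 and 161 were higher in region 4 than in region 1, so a climb of this size was not always followed by a low value.

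**Figure D2:**
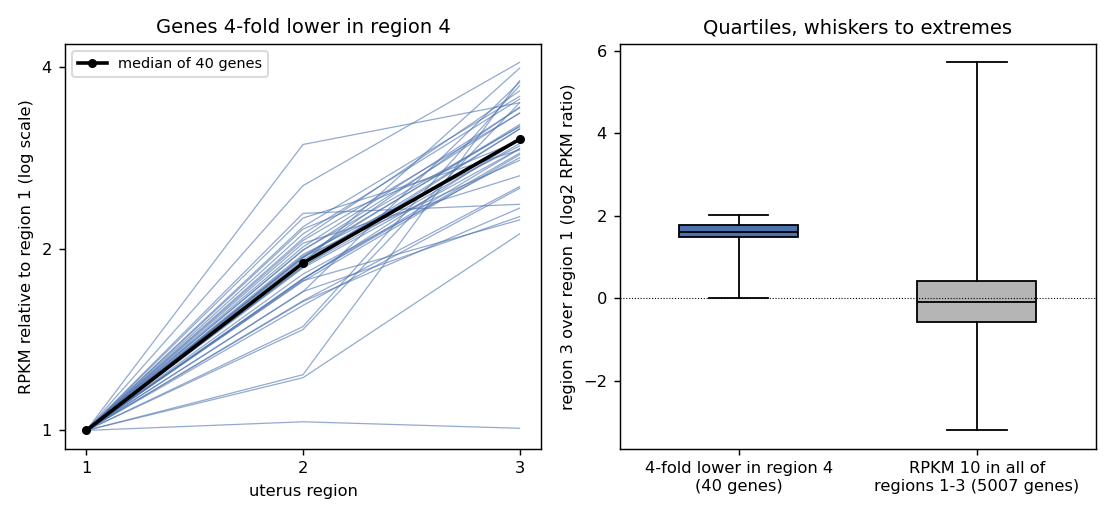
The left panel gives RPKM relative to region 1 on a log scale for each of the 40 genes lower in region 4, with the median in black. The right panel compares the log2 ratio of region 3 to region 1 in the 40 genes with that of 5007 genes at RPKM 10 or more in regions 1 to 3, as quartile boxes with whiskers to the extremes, and the box of the 40 genes lies above that of the 5007.

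In poly(A) RNA of embryos the median of the 40 genes stayed low. It was RPKM 0.65 at 24 h, 0.5 at 46 h, 0.65 at 64 h, 0.15 at 96 h, 0 at 116 h and 0.1 on day 7. At 24 h 5 of the 40 were at RPKM 10 or more, and at 96 h, 116 h and on day 7 none was. From region 4 to 24 h, 5 of the 40 were at least 2-fold lower and none higher among the 7 that reached RPKM 10 in either library, beside 15% lower and 10.5% higher of the 7945 genes. In larvae 4 genes were at RPKM 10 or more in L1 and 5 in L2. That the 64 h column is poly(A) RNA is an inference too.

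The day 0 fractions are separate libraries from region 4 zygotes and had no part in choosing the genes. The 40 genes had a median RPKM of 0.9 in the free, 2.6 in the middle and 0.25 in the heavy fraction. The mean of the fractions had a median of 1.33, and 10 of the 40 genes were at RPKM 10 or more in that mean. Of the 40, 13 were under RPKM 1 in region 4 and in all 3 fractions, a group formed after the values were seen. These 13 RNAs had medians of 77.2, 136.3 and 220.8 in regions 1, 2 and 3. From 24 h to day 7 all 13 stayed under RPKM 10 in each poly(A) library and each fraction, while in L1 and in L2 larvae 2 of them reached it.

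Another 6 of the 40 genes were under RPKM 1 in the region 4 library and at RPKM 10 or more in the day 0 middle fraction. This group was formed after the values were seen. Its median on day 0 was 47.8 in the middle fraction, against 4.6 in the free and 1.3 in the heavy fraction, and it was 0.25 in region 4. ASU_13436 had RPKM 9.6, 104.4 and 5.2 in the free, middle and heavy fractions of day 0. It was at 0.7 in region 4, against 73.2, 157.7 and 220.9 in regions 1, 2 and 3. Its fractions on day 1 were at 3.7, 2.1 and 1.3, and their mean was 2.37 on day 1 against 39.7 on day 0.

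ASU_12135 behaved alike, with RPKM 4.7, 52.6 and 1.1 in the day 0 fractions and 1, 0.6 and 0.9 on day 1. It was at 0.3 in region 4, against 8.1, 14.7 and 22.9 in regions 1, 2 and 3. On the scale of RPKM + 1 these had the lowest ratios of day 1 to day 0 among the 40 genes. The middle fraction held a median of 47.8 for the 6 genes on day 0, and this became 0.85 (day 1), 7.3 (day 3), 0 (day 5) and 106.85 (day 7). Because the day 0 middle fraction chose the 6 genes, its high value and the fall to day 1 are partly set by the choice. On day 7 all 6 were at RPKM 10 or more in each fraction, yet in the poly(A) library of day 7 they lay between 0 and 4. The labels give poly(A) selection for gradient RNA as well, and the design text treats the whole-embryo and gradient libraries of a stage as replicates. Whether the gradient preparation moves with this difference was not tested.

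**Figure D3:**
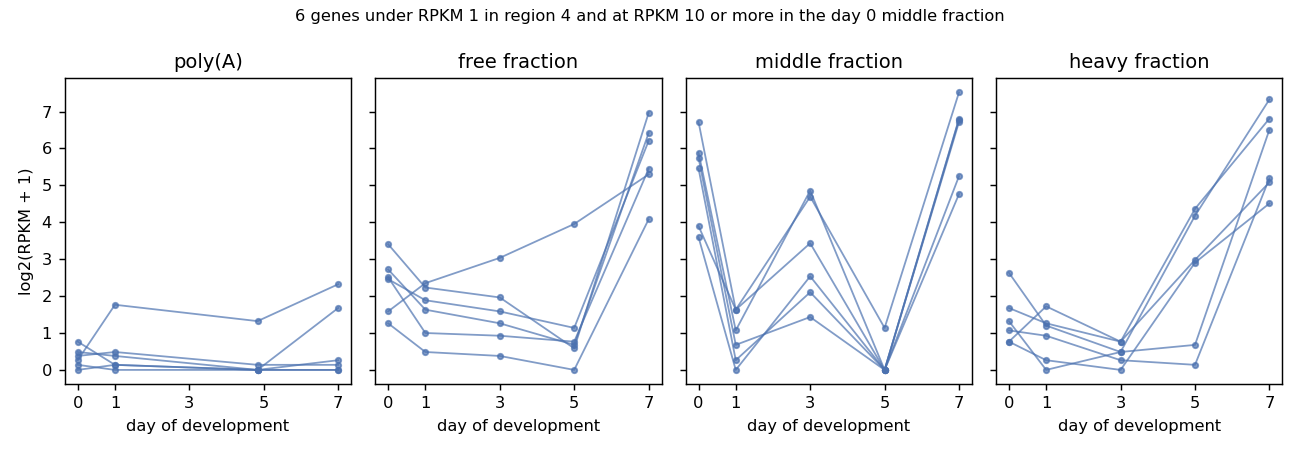
Lines follow the 6 genes under RPKM 1 in region 4 and at RPKM 10 or more in the day 0 middle fraction, as log2(RPKM + 1) in poly(A) RNA and in the free, middle and heavy fractions, against the day of development. Poly(A) values are region 4, 24 h, 116 h and day 7, and they stay low while the middle fraction is high on days 0 and 7.

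A further 7 of the 40 genes kept RPKM 10 or more in region 4, between 10.1 and 89.7, and all 7 were at RPKM 10 or more in the day 0 middle fraction too. Their medians were 29.6 in region 4, against 140.9, 209.3 and 519.9 in regions 1, 2 and 3. At 64 h they lay between 1 and 55.8, with a median of 13.5, and 3 of the 7 were above their level in region 4. At 96 h all 7 were at 3.2 or less. In the middle fraction their median was 37.4 on day 0 and 58.9 on day 1.

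On the scale of RPKM + 1, ASU_06927 had the highest ratio of day 1 to day 0 in the gradients among the 40 genes. Its mean over fractions was 3.97 on day 1 against 0.633 on day 0. It was at 0.7 in region 4, against 17.8, 30.2 and 67.1 in regions 1, 2 and 3, and reached 60.2 in L2. ASU_04873 was next, at 3.3 on day 1 against 1 on day 0. In RPKM itself the largest increase, found after the values were seen, was that of ASU_09999, which was at 71.7 on day 1 against 35.8 on day 0. ASU_09999 was at 26.6 in region 4, against 140.9, 209.3 and 524.5 in regions 1, 2 and 3. ASU_04873 was at 0.5 in region 4, against 29.1, 47.7 and 73.7 in regions 1, 2 and 3. Of the 40 genes 10 reached RPKM 10 in the mean of either day, and 4 of these were at least 4-fold lower on day 1. Among 6657 genes with such a mean 0.706% were. Over all 40 genes the median change from day 0 to day 1 was -0.05 log2 units, beside -0.27 over the 7486 genes. The day means of the 40 had medians of only 1.33 and 0.933, so the pseudocount of 1 weighs on this change. With a pseudocount of 0.1, at which 45 genes were chosen, the median was -0.40. Whether these RNAs changed less than other genes is therefore not settled.

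Some of the 40 genes stand next to each other in the numbering of the table, and in 10 of them the number was 1 away from that of another of the 40. ASU_02809, ASU_02810, ASU_02811 and ASU_02812, singled out after their values were seen, are 4 in a row. In region 4 they were at RPKM 0.1, 0.4, 0.6 and 0.2, against 296.8, 107.7, 21.7 and 61 in region 3. Their day 7 middle fractions were at 0, 109.3, 8.1 and 37.1, and their day 0 middle fractions at 0, 43, 4.2 and 13.9, so they differed in the gradients. Whether neighbouring numbers are neighbouring or similar genes is not given, and genes with near-identical copies can share reads.

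The 9 higher genes were nearly absent from the oocyte, which had no part in choosing them. That they were lower in regions 1 to 3 than in region 4 is set by the rule. All 9 were at RPKM 10 or more in region 4, and only 2 were in each of regions 1 to 3. Most of the 9 thus passed the filter of RPKM 10 through region 4 alone. In oocytes all 9 were at RPKM 1.4 or less, with 5 under RPKM 1 and 4 of these at 0. Of the 7486 genes, 191 were under RPKM 1 in oocytes and 86 at 0. Pearson's r with the oocyte across the 7486 genes was 0.612 to 0.693 for regions 1 to 3 and 0.618 for region 4. The rule set the 9 genes low in regions 1 to 3, so low oocyte values are not fully apart from the choice. The 9 genes had a median of RPKM 37.2 in region 4, against 6.3, 6.7 and 6.5 in regions 1, 2 and 3. Their ratio of region 3 to region 1 had a median of 1.11 and lay between 0.843 and 2.33. The distance to the nearest region was between 4.16-fold and 4.96-fold on RPKM + 1, close to the threshold for all 9.

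ASU_06315 was at RPKM 37.2 in region 4, against 4.7, 6.7 and 6.5 in regions 1, 2 and 3, and ASU_15245 was at 48.5, against 8, 9 and 7.8. In oocytes both had RPKM 0, and at 24 h they were at 23.3 and 25.5. In each of these genes region 4 stood alone above a narrow band of the other regions. ASU_14649 was at 18.7 in region 4, against 1.5, 3.7 and 3.5 in regions 1, 2 and 3. Oocytes had none listed, and 24 h embryos had RPKM 10.3.

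At 24 h all 9 RNAs were at RPKM 10 or more, as were 6452 of the 7486 genes. At 64 h and at 96 h 7 of the 9 were, and at 116 h 4 were. ASU_15245 was at 8.2 at 64 h and 0.8 at 96 h. The 9 had a median of 41 at 24 h, 46.9 at 46 h, 25.6 at 64 h and 31.6 at 96 h. It was 7.2 at 116 h and 3 on day 7. Of the 9, 5 were higher at 24 h than in region 4. The median change at 24 h was 0.25 log2 units, beside -0.18 over the 7486 genes. Over the 7945 genes at RPKM 10 in either library it was -0.08. Because region 4 chose the 9 genes, their change of 0.25 is partly set by the choice. Its direction was not kept: the median was -0.31 when the genes were chosen without region 1, -0.21 without region 3 and -0.13 with a pseudocount of 5. In L2 larvae 6 of the 9 were listed at 0.

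**Figure D4:**
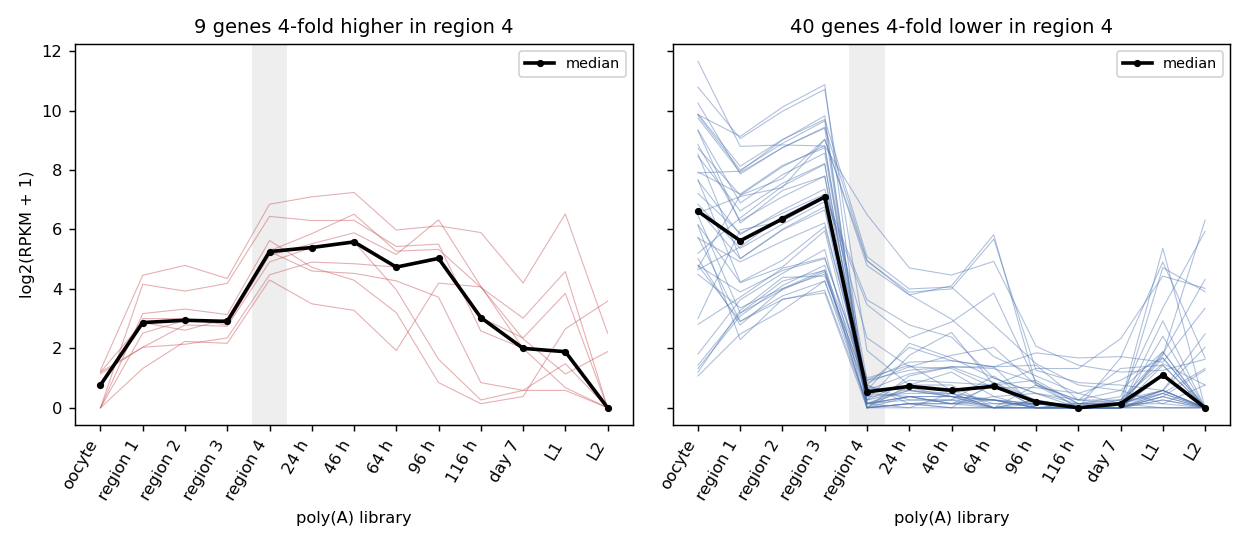
Thin lines show log2(RPKM + 1) in the 13 poly(A) libraries, from oocyte to L2 larva, for the 9 genes higher (left) and the 40 genes lower (right) in region 4, with medians in black and region 4 shaded. The median of the 9 genes stays up through 96 h, and that of the 40 stays near 0 after region 4 until L1.

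In the day 0 gradient 8 of the 9 genes were present, with 7 at RPKM 10 or more in all 3 fractions. Their medians were 28.4 in the free, 28.6 in the middle and 10.3 in the heavy fraction, and the free fraction was above the heavy one in 8. The other gene, ASU_14936, named here after its values were seen, was at 21.2 in region 4 and 28.9 at 24 h, yet at 0.3, 0.5 and 0.8 in the free, middle and heavy fractions. Its RNA was therefore almost unseen in the gradient of region 4 zygotes. The median difference of heavy minus free was -1.18 log2 units for the 9 genes, beside -0.24 over the 7486 genes. Over the 5855 genes at RPKM 10 in the heavy or the free fraction it was -0.66. The size of the median of the 9 depends on few genes. It was -0.59 when the genes were chosen without region 1, -0.83 without region 2 and -0.71 without region 3. Of the 9 genes, 8 were at RPKM 10 in either of these fractions. Among these 8, heavy was at least 2-fold below free in 5 and 2-fold above it in none. Among the 5855 genes with the same floor these shares were 40.6% and 15.5%.

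Between the gradients of day 0 and day 1 none of the 9 genes changed 2-fold in the mean of the fractions. Of the 6657 genes with RPKM 10 in either mean, 5.63% were 2-fold higher on day 1 and 11.5% lower. ASU_00903 had the highest ratio of day 1 to day 0, with RPKM 16, 46.5 and 17.8 in the free, middle and heavy fractions on day 1, against 13, 29.1 and 10.3 on day 0. It was at 29 in region 4, against 3.1, 5.9 and 5.7 in regions 1, 2 and 3. ASU_12193 had 14.2, 26.7 and 16.8 on day 1, against 12.8, 26.4 and 10.3 on day 0. Region 4 held it at 34, against 7, 7 and 5.9 in regions 1, 2 and 3. ASU_14649 had the lowest ratio, with 8.4, 5.1 and 2.4 on day 1, against 16, 10.6 and 5.1 on day 0. ASU_06315 came next, with 28.5, 10.4 and 6.9 on day 1, against 42.2, 19.4 and 11.3 on day 0.

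**Figure D5:**
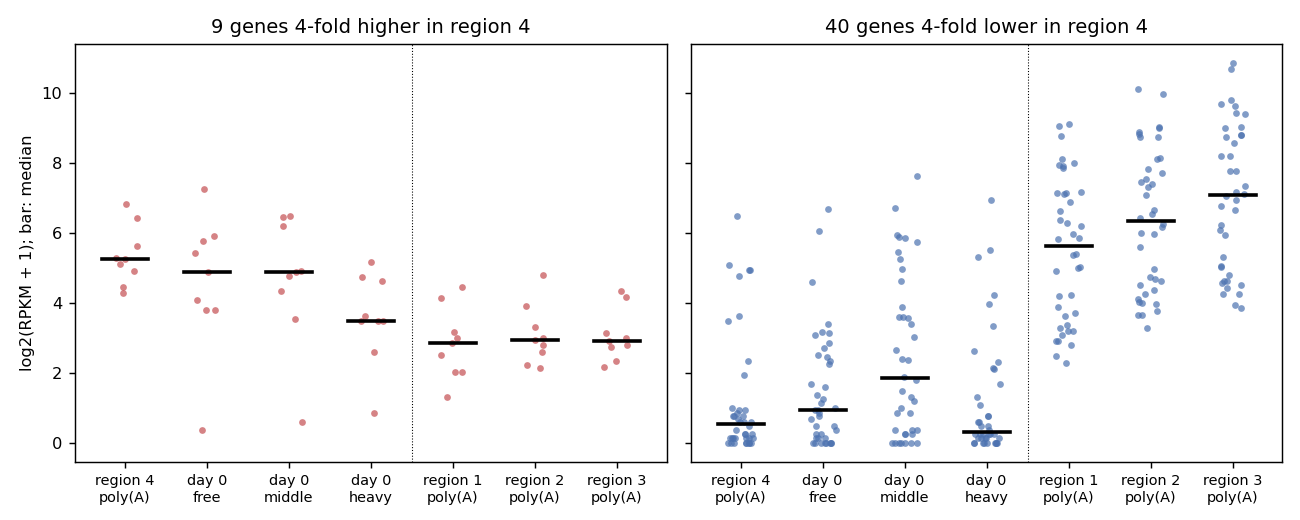
Points are log2(RPKM + 1) of the 9 genes higher (left) and the 40 genes lower (right) in region 4, and bars are medians. In each panel the region 4 poly(A) library and the day 0 fractions stand left of the dotted line and regions 1 to 3 right of it, and the medians of the 40 genes are far lower on the left side.

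The wider set of 425 genes higher by at least 2-fold was of another kind. Its median was RPKM 20.7 in region 4, against 7.1, 6.9 and 6.8 in regions 1, 2 and 3, and the oocyte library had 10.4. All 425 were at RPKM 10 or more in region 4, and 134, 126 and 131 were in regions 1, 2 and 3. Many could thus pass the filter only through region 4. Of the 425, 59 were under RPKM 1 in the oocyte library and 221 were at RPKM 10 or more there. The 221 genes present in the oocyte had medians of 19.3 in the oocyte library, 9.3, 8.3 and 8.3 in regions 1, 2 and 3, 23.7 in region 4 and 22.3 at 24 h. The rule fixes the order of region 4 and regions 1 to 3 here. The fold rule did not use the oocyte level, but the split that gave the 221 genes did. Their oocyte median of 19.3 is therefore partly set by that split. The 59 genes scarce in the oocyte had medians of 5.1, 6.7 and 6.5 in regions 1, 2 and 3, 23.7 in region 4, 14.2 at 64 h and 1.9 at 116 h.

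Gradient positions of the 425 genes did not use the region libraries. Their median difference of heavy minus free on day 0 was 0.33 log2 units, with quartiles of -0.50 and 0.97, beside -0.24 over the 7486 genes. Their medians were 7 in the free, 16.8 in the middle and 8.2 in the heavy fraction. The sign of the median was thus the opposite of that of the 9 genes, which are part of the 425. Only 215 of the 425 were at RPKM 10 in the heavy or the free fraction. Among these 215, heavy was at least 2-fold above free in 52 and below it in 59, beside 15.5% and 40.6% of the 5855 genes. At 24 h the 425 genes had a median of 21.8, and 43 were at least 2-fold lower and 29 higher than in region 4, beside 15% and 10.5% of the 7945 genes.

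The 75 genes lower by at least 2-fold had medians of 2.8 in region 4, against 55.8, 68.7 and 99.6 in regions 1, 2 and 3, and 35 of them were under RPKM 1 in region 4. In 50 of the 75 region 3 was at least 2-fold above region 1, as it was in 9.19% of the 5007 genes. The 75 include the 40, and 39 of the 50 belong to those. Only 58 of the 75 were at RPKM 10 or more in region 1, as the 5007 all were. Just inside the 4-fold limit lay genes at 4.51-fold and 4.72-fold lower and at 4.16-fold and 4.19-fold higher. Just outside lay genes at 3.77-fold and 3.61-fold lower and at 3.87-fold and 3.77-fold higher.

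Limma, a linear model with moderated variances fitted to log2(RPKM + 1) across all genes, set region 4 against the spread among regions 1 to 3. Those regions are places along the uterus and not replicates, and the lone region 4 library is assumed to vary as they do. Of 11076 genes, 0 were higher and 0 lower after Benjamini-Hochberg adjustment (0% in each direction). At an unadjusted p under 0.05 there were 1904 higher and 190 lower, among them all 9 and all 40 genes of the 4-fold sets, which were chosen on the same 4 libraries. These counts turned with the scaling, to 389 higher and 573 lower after median-ratio scaling and 408 and 484 after quantile normalization. The smallest adjusted p, 0.072, was shared by 9 genes, among them ASU_11339 with a log2 difference of -9.90 ± 0.69 (SE) and ASU_11066 with -8.93 ± 0.72. ASU_06315 had a difference of 2.47 ± 0.32 (adjusted p = 0.215).

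A fit of 11 libraries added the polysome value of region 4, the mean of its fractions, and the libraries of 3 later stages in both preparations, with stage and preparation as terms. It called 41 of 13143 genes lower (0.312%) and 4 higher (0.0304%) in region 4, limma adjusted p under 0.05. Of the 40 genes 37 were called lower, and of the 9 genes 2 were called higher. The region 4 poly(A) library that chose these genes is part of the fit, so these counts are no separate evidence. ASU_11339 had a difference of -9.96 ± 0.51 (adjusted p = 1.18e-06) and ASU_15245 of 2.09 ± 0.39 (adjusted p = 0.0461).

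The lower genes did not rest on the scaling of the libraries, and the higher ones did. After median-ratio scaling 46 genes were 4-fold lower and 0 higher, and after quantile normalization the counts were again 46 and 0. The same 40 genes were among the 46 each time. The 9 genes kept a distance of 2.98-fold to 3.60-fold after median-ratio scaling and of 2.95-fold to 3.99-fold after quantile normalization. At 2-fold the split turned from more higher to more lower genes, with 55 higher and 175 lower after median-ratio scaling and 68 and 140 after quantile normalization.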

How the data were processed

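The authors deposited RPKM values with 1 decimal for 15399 identifiers in 13 poly(A) columns and 15 gradient fraction columns, with no column left unused for want of a sample. Per the labels' protocols, poly(A) RNA was fragmented and copied by random priming. Bowtie 0.12.7 is named in the submitters' processing notes. Genome build, gene models and counter: not given in the sources used here. Of the 28 samples, 18 have a column and the other 10 were not analysed here. Each group has 1 library, so fold rules carry no test.

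Values were used as log2(RPKM + 1), which understates changes of scarce RNAs. The polysome value of a day is the mean RPKM of its 3 fractions. Limma 3.58.1 (R 4.3.3) used an intensity trend, genes at RPKM 1 in at least 2 libraries and a threshold of 0.05, with 2 residual degrees of freedom for 4 libraries and 5 for 11. The 4-library fit was also run on simulated data over 11076 genes. Their noise was drawn independently for each gene and library, whereas in the data genes climbed together through regions 1 to 3. Recovery in the simulation therefore cannot stand for the power of the fit on the real libraries. Named are the 2 genes of each 4-fold set farthest from the other regions, and in each set the 2 with the largest rise and the 2 with the largest fall from day 0 to day 1. The comparison, fold rules and lists were chosen with earlier results of these data known. Alternatives were other pseudocounts, filters and scalings, leaving out each region, and other limma designs.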

Additional observations from a re-analysis of the deposited data

How the results depend on the processing

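Of 110 alternative values, 80 stayed within 1.5 times the reported count or, for medians, within 1.5-fold. The 9 genes 4-fold higher became 15 with a pseudocount of 0.1, 1 with a pseudocount of 5, 2 with a filter of RPKM 50, 0 after quantile and 0 after median-ratio scaling, and 12 to 26 without 1 of regions 1 to 3. The 40 genes 4-fold lower became 26 with a pseudocount of 5. The 425 genes 2-fold higher became 133 with a pseudocount of 5, 57 with a filter of RPKM 50, 68 (quantile), 55 (median ratio), and 467 to 819 without 1 region. The 75 genes 2-fold lower became 48 with a filter of RPKM 50, 140 (quantile), 175 (median ratio), and 80 to 135 without 1 region.

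In limma, against 0 calls, 17 genes were lower with a pseudocount of 0.1, 11 with a filter of RPKM 10 and 10 after quantile normalization. With the slope over regions 1 to 3 as covariate, which leaves 1 residual degree of freedom, 3852 were higher and 488 lower, and 11 libraries gave 4 and 41. The median change of the 40 genes at 24 h was 1 with a pseudocount of 0.1. The heavy minus free median of the 9 genes, -1.18, was -0.39 with a pseudocount of 0.1, -0.55 with 5, between -0.83 and -0.59 without 1 region, and reversed to 0.33 for the 425 genes. Scaling left no gene 4-fold higher, so the medians of that set have no scaled value. Beyond the number of genes admitted or libraries used, the cause of these moves was not tested. Sequencing depth is unknown, so values near RPKM 0 cannot be told from absence. No paired analysis was possible because each group has 1 library and the labels give no shared replicate numbers.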
